A study of Homo sapiens with 2 samples.

Results

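The SOX genes encode transcription factors that bind DNA through an HMG box, a domain related to that of the sex-determining factor SRY. Members were the rows of both deposited site lists whose gene name is SOX2, SOX4, SOX9, SOX11, SOX12 or SOX13. Of these 6 genes, 5 were listed, with 80 of 72449 sites in replicate 1 and 88 of 81554 in replicate 2. Together the SOX genes had 93 sites, of which 75 were listed in both replicates and are called shared here. All 93 lay on the plus strand and inside the span that NCBI RefSeq gives for the gene on GRCh38, so gene names and positions matched.

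Both libraries were made from mRNA of wild-type HEK293T cells, an established line of human embryonic kidney origin, taken at a time labelled day 0, with the treatment labelled GLORI+. GLORI converts unmethylated adenosine to inosine, which is read as G, while N6-methyladenosine (m6A) is still read as A. The level of a site is therefore the percentage of A among its A and G reads. The labels give 1 group of 2 replicates and no untreated or writer-deficient control, and they do not say whether the replicates are separate cultures, so differences between them may be technical.

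As background, m6A is placed on mRNA in the nucleus by a methyltransferase complex, mostly within a short sequence context, and is known to shorten the life of many transcripts that encode regulators. SOX2 is a pluripotency and neural progenitor factor of the SoxB1 subgroup. SOX4, SOX11 and SOX12 form the SoxC subgroup, which acts in progenitor survival and neuronal differentiation. SOX9, of SoxE, directs cartilage formation and sex determination, and SOX13, of SoxD, lacks a transactivation domain of its own. SOX2, SOX4, SOX11 and SOX12 are genes without introns, so distance along them is also distance along the transcript.

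The members fell into a heavily listed pair and a sparse remainder. SOX4 had 38 sites in replicate 1 and 43 in replicate 2, with 38 shared, and SOX12 had 29 and 30, with 27 shared. SOX13 had 9 sites in each replicate, 7 of them shared. SOX9 had 2 and 3 sites with 2 shared, and SOX2 had 2 and 3 with 1 shared. SOX11 had 0 listed sites in either replicate, which sets no bound on its methylation because sites that failed the authors' limits are not listed.

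**Figure D1:**
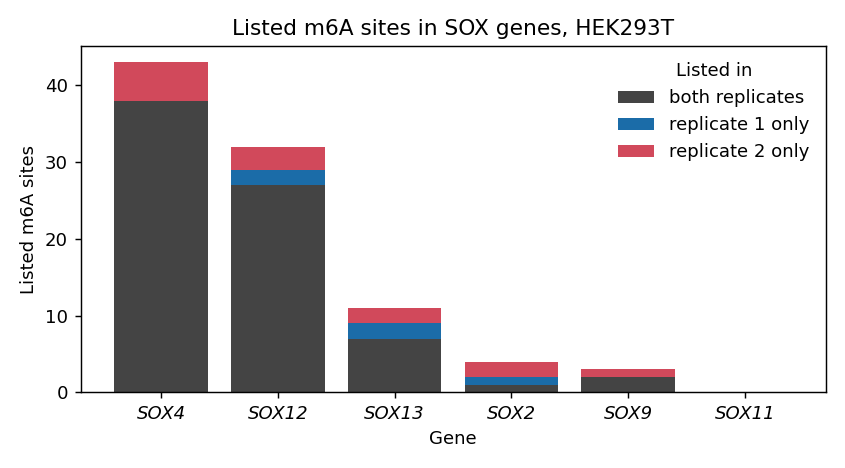
Number of listed m6A sites (vertical axis) in each SOX gene (horizontal axis), with the bar divided into sites listed in both replicates, in replicate 1 only and in replicate 2 only. SOX4 and SOX12 hold 75 of the 93 sites, and SOX11 has no bar because it had 0.

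Over the 9521 named genes with a shared site the median was 4 shared sites, and 41 genes had more than SOX4 and 137 more than SOX12. The pair was also deeply covered. The authors' gene coverage was 187 and 213 for SOX4 and 144 and 160 for SOX12 in replicates 1 and 2, which placed both in the highest of 10 equal classes of genes by coverage. In that class of 952 genes the median was 2 shared sites, and 8 genes, SOX4 included, had at least 38. Gene coverage was 26.8 and 31.5 for SOX13, 14.4 and 17.1 for SOX9, and 11.0 and 13.5 for SOX2, and the medians in their classes were 5, 3 and 2 shared sites. The smallest coverage listed was 15 reads and the smallest A count 5, so a site at the lowest listed level of 10% needs 50 reads. SOX2 had at most 23 reads at any listed site and SOX9 at most 43. At the depth of the listed sites, a SOX2 site with a level under 20% could not be listed, and in SOX9 only the better covered ones could. The depth at unlisted positions is unknown, and these site counts are not comparable with those of SOX4.

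**Figure D2:**
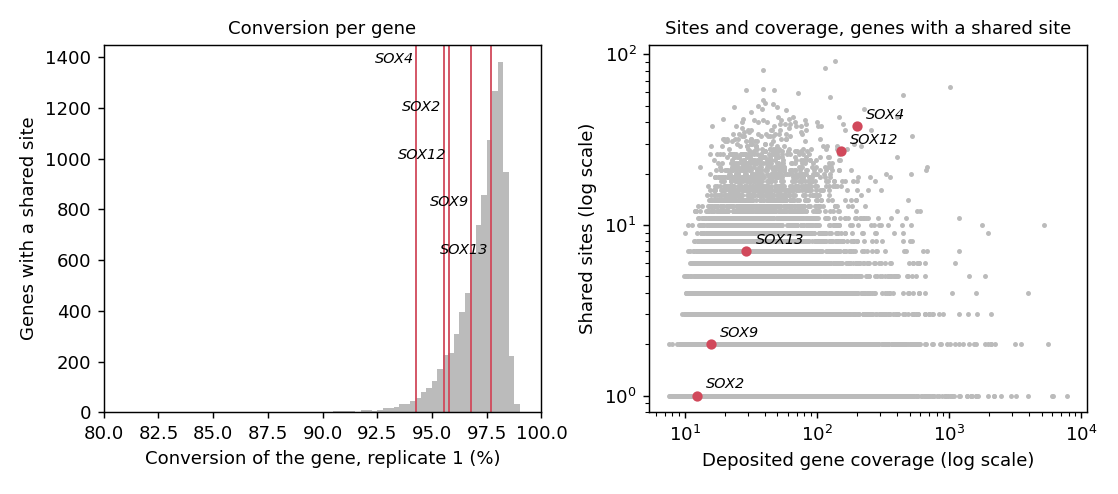
Left, the number of genes with a shared site (vertical axis) by the authors' conversion percentage for the gene in replicate 1 (horizontal axis), with red lines at the SOX genes. Right, shared sites (log axis) against the authors' gene coverage, averaged over replicates (log axis), for each gene in grey and the SOX genes in red. SOX4 stands at 94.3% conversion with 38 sites, and SOX13 at 97.7% with 7.

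The authors list a conversion percentage for each gene, and it was low in several members. In SOX4 it was 94.3% in replicate 1 and 94.4% in replicate 2, against medians of 97.5% and 97.6% over genes. Only 2.38% and 2.47% of genes had a lower value. SOX12 had 95.8% and 95.7%, SOX2 95.5% and 96.4%, SOX9 96.8% and 97.3%, and SOX13 97.7% and 97.5%. In the 424 genes with at least 20 shared sites the median in replicate 1 was 96.3%. The unconverted share of SOX4 was 5.73% and 5.61%; whether the authors left methylated sites out of this estimate is not stated in the headers, and its part in the low levels of SOX4 was not tested beyond the correction given below.

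SOX4 was methylated at a mean level of 51.5% ± 0.30 (counting SE over 38 shared sites, 1 sample), with shared sites from 10.6% to 96.9%. The mean was 51.6% in replicate 1 and 51.5% in replicate 2. Its most methylated site, position 21596389 of chromosome 6, had 427 A reads of 440 in replicate 1 (97.05%) and 513 of 530 in replicate 2 (96.8%). The summed reads gave a 95% Wilson interval of 95.6 to 97.8%. Position 21596572 followed with 286 of 298 reads (96.0%) and 366 of 377 (97.1%). At both sites nearly every read showed A.

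Among the shared sites of SOX4, 13 had a level of at least 80%, and 7 of them at least 90%. They were spread from 295 to 3503 nt after the annotated start rather than held in 1 stretch. Near the start, position 21594060, 309 nt in, had 339 A reads of 366 (92.6%) and 399 of 423 (94.3%). In the middle, position 21595877, 2126 nt in, had 493 of 519 (94.99%) and 558 of 598 (93.3%). The last shared site, position 21597254, 3503 nt in, had 36 of 42 (85.7%) and 50 of 54 (92.6%). The first shared site of the gene, position 21593853, was weaker, with 189 of 641 reads (29.5%) and 229 of 799 (28.7%).

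At the other end, 9 shared SOX4 sites had a level under 20%, covered by 101 to 986 reads in replicate 1 and by 136 to 1206 reads in replicate 2. The lowest was position 21595760, with 73 A reads of 667 (10.9%) and 81 of 786 (10.3%), at the edge of the authors' 10% limit. The deepest SOX4 site, position 21596316, was almost as low, with 110 of 986 (11.2%) and 130 of 1206 (10.8%). After correction for the gene's unconverted share these 9 sites lay between 5.25% and 14.8%. Each was covered by more than the 50 reads that a level of 10% needs.

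**Figure D3:**
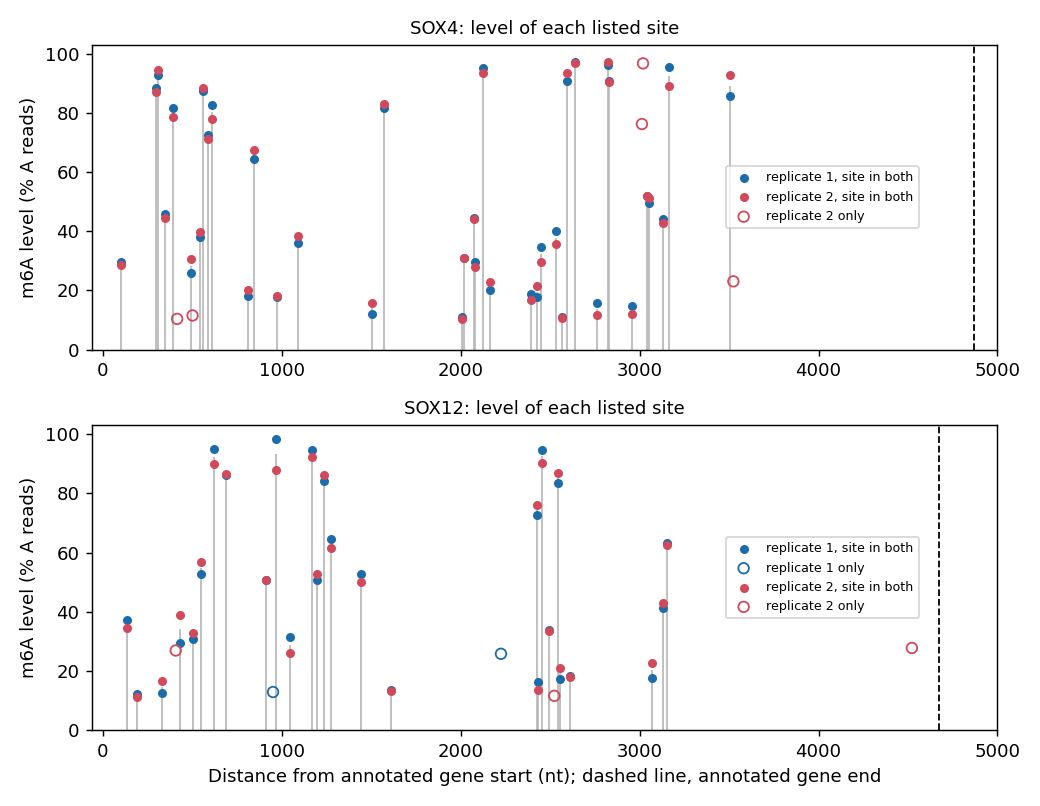
Level of each listed site (vertical axis, percent of A among A and G reads) by distance from the annotated gene start in nt (horizontal axis), for SOX4 above and SOX12 below. Filled points are sites listed in both replicates, in blue for replicate 1 and red for replicate 2, open circles are sites of 1 replicate only, grey stems reach the mean level, and dashed lines mark the annotated gene ends. Replicate points of a site nearly coincide, sites of high and low level occur along most of the listed stretch, and the last shared sites stand 3503 and 3153 nt from the start.

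SOX12 had a mean level of 50.2% ± 0.55 (counting SE over 27 shared sites), from 11.7% to 93.5%. Its highest site with at least 50 reads in each replicate, position 326721 of chromosome 20, had 283 A reads of 299 (94.6%) and 351 of 380 (92.4%). Position 326518 had 63 of 64 (98.4%) in replicate 1 and 58 of 66 (87.9%) in replicate 2. The lowest, position 325743, had 18 of 147 (12.2%) and 20 of 178 (11.2%), and the deepest, position 327165, 102 of 750 (13.6%) and 114 of 850 (13.4%). SOX12 had 7 sites at 80% or more and 6 under 20%. As in SOX4, the deepest site of the gene was among its least methylated. The second deepest sites were not: position 21596345 of SOX4 had a level of 91.9% and position 326995 of SOX12 51.3%.

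Among the 75 shared sites of all members, 29.3% had a level of at least 80%, against 19.8% of all shared sites, and 21.3% a level under 20%, against 15.2%. Depth sets which weak sites can be listed, so both were also counted among sites with at least 100 reads in each replicate. The SOX genes had 54 such sites, 35 in SOX4 and 19 in SOX12. Of these, 15 had at least 80%, where the share over all genes was 14.2%, and 13 were under 20%, where it was 31%. The levels of SOX4 were more spread than those of most genes with many sites. The SD over its sites was 31.0 points and that of SOX12 29.0, against a median of 26.9 in 424 genes with at least 20 shared sites. Of these genes, 23 had a larger SD than SOX4 and 95 a larger one than SOX12. The 424 genes were not matched for depth, and the part of depth in the spread was not tested.

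Levels of neighbouring sites differed by amounts from small to large. The members had 17 pairs of adjacent shared sites at most 30 nt apart, and in 15 of them the 95% Wilson intervals did not overlap, where 61.4% of the pairs in all named genes were apart in this way. With at least 200 summed reads at both sites it was 13 of 14, against 77.1%. More reads give narrower intervals, and the shallower site of the SOX4 pairs had 220 to 2092 summed reads. These shares were not matched for depth, and the part of depth in them was not tested. The median difference within a pair was 20.3 points over the members, against 23.9 over all named genes. By gene it was 14.0 points in the 10 pairs of SOX4, 59.6 in the 5 of SOX12 and 26.7 in the 2 of SOX13. The size of the difference was thus not larger than usual over the members together or in SOX4, but was larger in the few pairs of SOX12. A site of at least 80% stood beside one under 20% in 3 of the 17 pairs, against 4.49% of pairs in all named genes; these limits on level were chosen after the values were seen. In SOX4, position 21596316 (10.97% as the mean of both replicates) stood 29 nt before position 21596345, which had 830 A reads of 916 (90.6%) and 1097 of 1176 (93.3%). In SOX12, position 327986 had 18 of 111 (16.2%) and 16 of 119 (13.4%). It lay 8 nt after position 327978, with 83 of 114 (72.8%) and 95 of 125 (76.0%), and 22 nt before position 328008, with 54 of 57 (94.7%) and 75 of 83 (90.4%). Neighbours within a read share molecules, so these intervals are not independent, and pairs were chosen for display after their values were seen.

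Other adjacent pairs had like levels. In SOX4, positions 21596572 and 21596580, 8 nt apart, had 96.5% and 90.6% as means of both replicates, and their intervals did not overlap at this depth. Positions 21596793 and 21596803 of SOX4, 10 nt apart, had 54 of 104 reads (51.9%) and 79 of 160 (49.4%) in replicate 1, and 80 of 154 (51.9%) and 111 of 217 (51.2%) in replicate 2. This was the only SOX4 pair whose intervals overlapped. In SOX13, positions 204126215 and 204126232, 17 nt apart, also overlapped, at 73.7% and 89.5% with 51 and 50 summed reads.

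Sites of SOX4 and SOX12 stopped well before the annotated 3' end. The last shared site lay 1365 nt from the end in SOX4 and 1519 nt from it in SOX12, and neither gene had a shared site in its last 10%. Over protein-coding genes 44.1% of shared sites fell in this final stretch, and 15% in genes of 2000 to 6000 nt, which are nearer to these in span. Within 1 kb of the annotated end SOX2, SOX4, SOX9 and SOX12 had 0 shared sites, against 36.1% of the sites in genes of 2000 to 6000 nt. A gap of this kind was common in heavily methylated short genes: 17 of 40 such genes with at least 20 shared sites had none within 1 kb of the end. In replicate 2 alone, SOX12 had a site 4522 nt from the start, with 5 A reads of 18 (27.8%). The read depth between listed sites is unknown, so the lack of listed sites there sets no bound on methylation.

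Along SOX4 the sites were dense up to 1000 nt from the start, with 13 shared sites, and from 2000 to 3000 nt, with 17. Between 1000 and 2000 nt there were 3, at 37.3%, 14.0% and 82.2%. The 9 shared sites from 2000 to 2500 nt had the lowest mean of any 500 nt window with more than 1 shared site, 33.3%, and the next window, with 8 sites, had 56.5%. SOX12 had 4 shared sites in its first 500 nt, with a mean of 24.1%, and 12 in the next 1000 nt, with window means of 68.2% and 62.3%. The first 500 nt of SOX4, with 6 sites, had 60.6%. Positions of coding and untranslated sequence and the bases around the sites were not analysed here.

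SOX13, on chromosome 1, had a mean level of 61.0% ± 1.9 (counting SE over 7 shared sites), from 15.9% to 97.9%. A pair of its sites lay at the start of the gene, 52 and 57 nt in. Position 204073167 had 11 A reads of 27 (40.7%) and 13 of 33 (39.4%), and position 204073172, 5 nt on, 22 of 26 (84.6%) and 24 of 34 (70.6%). The other 5 shared sites lay within the last 10% of the 54629 nt span, from 53015 nt on. The highest was position 204126130, with 23 of 24 reads (95.8%) and 19 of 19 (100%), and the lowest position 204127399, with 9 of 46 (19.6%) and 6 of 49 (12.2%). Only position 204126402 had at least 50 reads in each replicate, with 17 of 56 (30.4%) and 19 of 55 (34.5%). SOX13 was thus listed at both ends of the gene and in no shared site between them. SOX13 is not among the genes without introns, so distance along this span is not distance along the transcript. How much of the stretch between belongs to the mRNA was not analysed.

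SOX9, on chromosome 17, and SOX2, on chromosome 3, rested on few reads. In SOX9, position 72121211, 191 nt from the start, had 12 A reads of 16 (75%) and 20 of 30 (66.7%), and position 72124266, 3246 nt in, had 10 of 41 (24.4%) and 9 of 43 (20.9%). The intervals of these sites, 55.2 to 80.9% and 14.99 to 32.6%, did not overlap. In SOX2 the shared site, position 181713175, had 12 of 18 (66.7%) and 18 of 20 (90%), with an interval of 63.7 to 88.9%. Replicate 1 also listed position 181713166 with 5 of 16 reads (31.3%), and replicate 2 listed positions 181712887, with 7 of 23 (30.4%), and 181713233, with 15 of 22 (68.2%). From first to last the 4 SOX2 sites spanned 346 nt in the middle of the gene. SOX2 lies inside the span of the long noncoding gene SOX2-OT, to which RefSeq gives positions 181056680 to 181742228, and no row in the SOX2 span carried that name.

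By mean level the order was SOX2 (78.3% ± 6.6, 1 site), SOX13, SOX4, SOX12 and SOX9 (46.7% ± 4.2, 2 sites). By counting error alone SOX2 exceeded SOX13 by 17.3 points (95% interval 3.81 to 30.8) and SOX13 exceeded SOX4 by 9.50 (5.77 to 13.2). The SOX2 value rests on 1 site, and without replicate 2, with all sites of replicate 1, SOX2 had 49.0% and SOX13 52.4%. SOX4 stood above SOX12 by 1.31 points (0.0886 to 2.54). SOX12 and SOX9 were not separated (3.48 points, -4.89 to 11.8). With at least 50 reads in each replicate SOX12 (51.7%) stood above SOX4 (50.5%), and SOX13 had 1 site, at 32.5%. Corrected for the unconverted share, SOX4 had 48.6% and SOX12 48.0%. The order therefore changed with the read limit and with the replicates used. Over all genes with a shared site the median of the mean level was 46.6%, and in the highest coverage class, which holds SOX4 and SOX12, it was 31.02%. In the coverage classes of SOX2, SOX9 and SOX13 it was 58.6%, 56.5% and 48.6%. SOX9 lay below the median of its class and the other listed members above theirs. In the highest class, 145 of 952 genes had at least the level of SOX12. In the 424 genes with at least 20 shared sites the median level was 53.1%, so SOX4 and SOX12 lay slightly below genes with many sites. Depth sets which weak sites can be listed, so mean levels of members in unlike classes are not comparable.

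The only comparison of samples that the labels allow is between the replicates. Fisher's exact test on the A and G reads, with Benjamini-Hochberg adjustment over all 60462 shared sites, called 0 sites of the SOX genes and 0% of all shared sites. The smallest adjusted p among the SOX sites was 1, and a chi-square test also called 0 after adjustment. In simulated data, changes of 30 points were placed at sites of middle level with at least 50 reads in each replicate, and 67% were called. SOX2 and SOX9 had 0 shared sites of that depth and SOX13 had 1, so 0 calls there do not show equal levels. An unadjusted p under 0.05 was found at 3 of 75 SOX sites by either test, against 3.06% of all shared sites by Fisher's exact test and 4.28% by the chi-square test. In SOX4 the median difference between replicates was 1.69 points and the largest 6.88, and in SOX12 they were 2.77 and 10.6. The largest over all members was the 23.3 points of the SOX2 site, which had 18 and 20 reads (unadjusted p = 0.117, Fisher's exact test). Across sites, levels of the replicates correlated with r = 0.996 in SOX4 (n = 38 sites) and 0.991 in SOX12 (n = 27 sites), as a description, since sites of a gene share the library and the transcript. Over all shared sites the mean chi-square of the difference was 0.931, no larger than the sampling of reads gives. The libraries were therefore counted as 1 sample and no SD over replicates is given. Only sites that passed the authors' limits in both replicates enter this value, so it does not cover sites listed in 1 replicate.

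**Figure D4:**
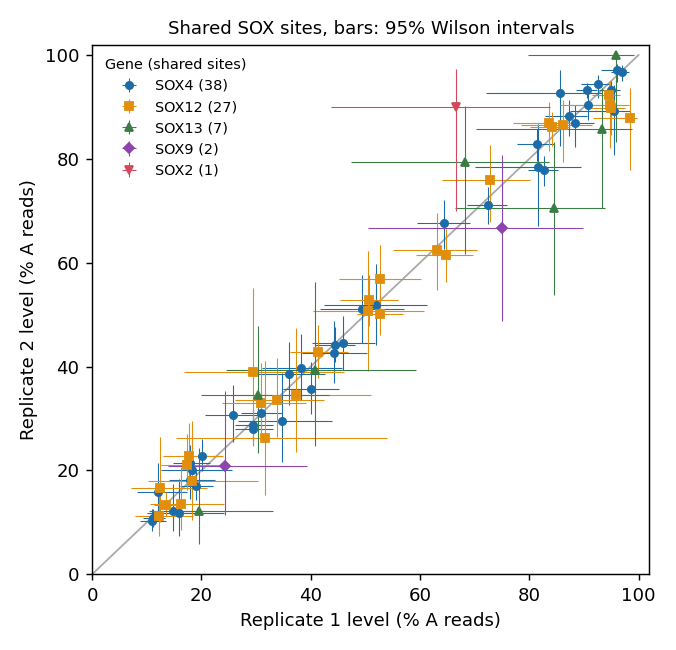
Level of the 75 shared SOX sites in replicate 2 (vertical axis) against replicate 1 (horizontal axis), both in percent of A among A and G reads, with 95% Wilson intervals as bars and the line of equal levels in grey. SOX4 and SOX12 sites lie close to the line, within 6.88 and 10.6 points, and the SOX2 site, with 18 and 20 reads, lies 23.3 points above it.

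Listing itself differed between the replicates. Of the SOX sites of replicate 1, 93.8% were also listed in replicate 2, where the share over all sites was 83.5%. In the other direction it was 85.2%, against 74.1%. By gene, the sites of replicate 1 also listed in replicate 2 were 38 of 38 in SOX4, 27 of 29 in SOX12, 7 of 9 in SOX13, 2 of 2 in SOX9 and 1 of 2 in SOX2. In the other direction they were 38 of 43, 27 of 30, 7 of 9, 2 of 3 and 1 of 3. The pooled shares thus rest mostly on SOX4 and SOX12, which were deeply covered, and the part of depth in them was not tested. The 5 sites of replicate 1 only had levels of 11.4% to 31.3% with 16 to 70 reads, so all were weak or shallow. Of the 13 sites of replicate 2 only, 5 had a level under 20%, among them SOX4 positions 21594166, with 26 of 250 reads (10.4%), and 21594252, with 20 of 173 (11.6%).

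A pair of neighbouring SOX4 sites went against this pattern. Position 21596764 had 32 A reads of 42 (76.2%) and position 21596770, 6 nt on, 58 of 60 (96.7%) in replicate 2, and neither was listed in replicate 1. The next site, position 21596793, 23 nt further, was listed in both with 104 and 154 reads and equal levels of 51.9%. Of the 7622 replicate 2 sites with at least 40 reads and a level of at least 75%, 10 were not listed in replicate 1 (0.131%), and 2 of these 10 were this pair. Among the 23 SOX sites of that kind it was 2. In the other direction it was 0 of 20 SOX sites, against 0.187% of all such replicate 1 sites. The thresholds were set after the pair was seen, and why it was not listed was not tested.

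Genes with a like pattern were sought among 4015 genes with at least 5 shared sites, by distance in number of shared sites and mean level. Nearest to SOX4 were MAML1 (38 sites, 50.4% ± 0.57) and TATDN2 (36 sites, 51.6% ± 0.78). Nearest to SOX12 were PRR12 (27 sites, 49.7% ± 0.87) and LARP1 (26 sites, 49.7% ± 0.56), and nearest to SOX13 were SLC2A1 (7 sites, 61.0% ± 1.3) and DLL1 (7 sites, 61.1% ± 2.2).

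Of the 14 other human SOX genes, SRY included, 4 were listed and 3 had shared sites. SOX8 had 7 shared sites at 63.1% ± 2.4, SOX18 3 at 68.6% ± 3.9 and SOX7 3 at 76.5% ± 3.0. Their gene coverage was 11.8 to 15.6 in replicate 1, like that of SOX2 and SOX9, and their conversion 95.2% to 95.6%. Depth sets which weak sites can be listed, so their levels are not comparable with those of deeper genes. Of 25 other genes with an HMG box, 22 had shared sites, with a median of 6 and a median level of 44.7%, and 13 had more than the median of 4 over all genes. The most were in the histone methyltransferase genes KMT2D (81 sites, 56.2% ± 0.49) and KMT2C (32 sites, 48.4% ± 0.98) and in HMGXB3 (15 sites, 49.5% ± 1.0). The HMG-box genes for the abundant chromatin proteins HMGB2 and HMGB3 had 2 shared sites each, at 15.8% ± 1.0 and 16.2% ± 2.2. These genes were named outside the rule for genes with the most sites. HMGB1 had 0 shared sites. Of the HMG-box genes with 1 shared site, TFAM had 94.3% ± 3.1, SSRP1 12.4% ± 0.98 and SMARCE1 12.3% ± 2.8.

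Of 17 genes for factors that act on DNA beside SOX proteins, 10 had shared sites, with a median of 9.5 sites and of 55.2%, and 8 lay above the median number over all genes. CHD7, a chromatin remodeller, had 26 shared sites at 59.5% ± 0.85. POU3F2, a neural POU factor that pairs with SOX2 and SOX11, had 20 at 67.1% ± 0.96, and the corepressor gene CTBP1 had 18 at 39.0% ± 0.94. POU5F1, NANOG, SALL4, POU2F2, POU3F1 and POU3F4 had 0 listed sites, and PAX6 had 1, in replicate 1 only. As for SOX11, this sets no bound on their methylation.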

How the data were processed

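Per the labels, 100 to 200 ng of oligo(dT)-purified mRNA entered each GLORI library, made by a modified eCLIP procedure. Per the submitters' processing notes, the tools were Trim Galore 0.6.6, STAR, SAMtools and Bowtie and the build was GRCh38; the site caller and its limits are not named in the labels or headers. Per the file headers, the authors deposited for each called site the count of A plus G reads, the count of A reads, their ratio as a fraction, a conversion fraction and a coverage for the gene, and a p-value, raw and adjusted. The deposited fraction matched the quotient of both counts to within 5e-06. The listed sites held 5221660 reads in replicate 1 and 6306522 in replicate 2, which is not the depth of the libraries.

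Here a site's level is the mean of both replicates, with a 95% Wilson interval on the summed counts. The level of a gene averages its shared sites and carries a counting standard error. Both cover counting error only, and reads may not be independent molecules. Fisher's exact test was two-sided and its script was tested on simulated data. Gene spans came from RefSeq's GRCh38.p14 table, in which 96.98% of 9521 symbols were found. Scripts used Python 3.11.15, SciPy 1.17.1 and pandas 2.3.3.

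The members and lists were chosen with earlier results of these data known. Sites named by rule are the highest, lowest and deepest shared site of each member with at least 50 reads in each replicate (15 where there is none); further sites were chosen after their values were seen. The rule also takes, for each member with at least 5 shared sites, the 2 nearest genes by z-scored log2 site number and level, and the 3 genes of a list with the most sites. Alternatives covered read and level limits, sites of either or 1 replicate, and averaging. No genome was used, so planned counts by sequence motif, by mRNA region and by aligned SoxC codons were not made.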

Additional observations from a re-analysis of the deposited data

Results flagged for a closer look

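A row outside the comparisons lay inside the SOX13 span on the opposite strand and without a gene name. In replicate 1, position 204100152 of chromosome 1 (minus strand, GRCh38), 27037 nt from the SOX13 start, had 14 A reads of 17, a level of 82.4% (95% Wilson interval 59.0 to 93.8). It is given because it carries A reads in a row that no comparison used; a listed site has at least 5 A reads by the limits of the list, so its level says nothing on how the row compares with background. Replicate 2 did not list it, and no other row of another name or strand lay in the span of a SOX gene in either replicate.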

How the results depend on the processing

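Site counts of SOX4 and SOX12 stayed within 1.5 times under every alternative run, and SOX11 had 0 sites in each. The sparse genes followed the read limit. SOX2 had 0 shared sites at 30 and at 50 reads, 4 in either replicate, and 2 to 3 in a single replicate. SOX9 had 1 and 0 shared sites at these limits, and SOX13 had 2 and 1, and 11 in either replicate. Levels moved outside the 95% counting interval of the reported level in 26 of 42 values. With 50 reads SOX4 had 50.5%, SOX12 51.7% and SOX13 32.5%, and with 30 reads SOX9 had 22.7% and SOX13 24.2%. With a level of at least 20% in each replicate SOX4 had 62.8%, SOX12 62.2% and SOX13 68.6%. Over sites of either replicate SOX2 had 52.0%, SOX4 50.6%, SOX12 45.7% and SOX13 45.4%. In a single replicate SOX2 had 49.0 to 62.9%, SOX4 50.6 to 51.6%, SOX9 37.8 to 49.7%, SOX12 47.4 to 48.1% and SOX13 50.6 to 52.4%. Each of these alternatives changes which sites enter the mean, except that replicate 1 alone keeps the 38 shared sites of SOX4 and the 2 of SOX9. Weighted by reads SOX4 had 50.01% and SOX13 52.1%, and the medians over sites were 43.9% and 73.7%; the cause was not tested. Corrected for the unconverted share, an alternative added after seeing the data, SOX4 had 48.6% and SOX12 48.0%. The median number of sites was 14 for the SOX members at 30 reads and 11 over either replicate, and 5.5 for the other SOX genes over either replicate. The replicate comparison called 0 SOX sites in each alternative. Of the values on the last 10% of the gene, on sites at 80% or more and on adjacent pairs, 47 stayed and 8 moved, all 8 in SOX2, SOX12 and SOX13. Counts by motif, by mRNA region and by aligned codons were not run. No paired analysis was possible because the labels give 1 group.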

Other observations

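SOX21, a SoxB2 repressor gene of neural progenitors, had 5 sites in replicate 2 and 0 in replicate 1. In replicate 2 their levels ran from 23.8% to 100% with 15 to 21 reads each, and the gene coverage was 9.77, so all lay near the smallest listed coverage of 15 reads. Of 5135 genes with at least 5 sites in replicate 2, 4 had 0 in replicate 1 (0.0779%), and in the other direction it was 1 of 4696. The conversion of SOX21 was 94.7%, near that of SOX4.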
